A study of Mus musculus with 16 samples.

Results

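NADPH oxidases are membrane enzymes that pass electrons from NADPH to oxygen and so make superoxide or hydrogen peroxide. In phagocytes the catalytic subunit Cybb (Nox2) sits in the membrane with its partner Cyba and becomes active when cytosolic subunits, among them Ncf1 and Ncf4, and the small GTPase Rac2 join it. Nox4, the main form of vascular smooth muscle, also pairs with Cyba but needs no cytosolic subunit, and Nox1 works with its own organizer and activator, Noxo1 and Noxa1. Both kinds of oxidase have been studied as sources of oxidative stress in atherosclerotic arteries. The genes described here are Cybb, Cyba, Ncf1, Ncf4, Rac2, Nox1 and Nox4. They were taken as every probe whose gene name on the array is one of these 7 symbols, which gave 11 of 41174 probes and 7 of 28482 genes. Where a gene had several probes, the brightest stands for it and the others are given beside it.

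The tissue was descending aorta, down to near the renal branches, of female ApoE-deficient C57BL/6 mice, a strain that develops atherosclerosis. All mice, controls included, lacked ApoE, were ovariectomized at 4 to 5 weeks of age and ate a high-fat Western-type diet; 2 weeks after surgery each received a subcutaneous pellet built to release its content for 90 days, and aortas were taken after 78 to 90 days. Of the 16 samples, 4 came from mice given medroxyprogesterone acetate (MPA), a progestin of the progesterone type, and 4 from mice given norethisterone acetate (NET-A), a progestin of the nortestosterone type. The labels mark placebo groups M and N, of 4 each, without stating which progestin either belongs to, and they state no doses. Each progestin was set against the placebo group that shared its slides, giving an MPA experiment and a NET-A experiment of 8 arrays each. The labels number the samples without stating that each came from its own mouse, so p-values measure only the spread between these samples, which may be technical. The whole vessel was measured, so fewer cells of a type and less RNA per cell cannot be told apart.

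A level below is the log2 signal of a probe less the 75th percentile of its array, so that 0 means a signal equal to that percentile. Levels of different probes are not compared, since probes differ in brightness. All 8 smooth muscle markers were well above background on every array, as were the 17 macrophage markers. Correlations between arrays of the same group, over genes, were 0.956 to 0.986. The share of spots well above background was 46.3% (MPA replicate 2) to 60.6% on the MPA slides and 62.3% to 78.5% on the NET-A slides. With 4 arrays a group, their number limits the precision of every value.

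Sequences are shown for the Cybb, Cyba and Nox4 probes whose target crosses an exon junction. For Cyba this is its only probe. For Cybb and Nox4 it is the second, dimmer probe, and their main values come from the brightest. Each is a 60-base probe, 5′ to 3′, from the array design on build mm9, and its target covers more genome than 60 bases. The Cybb probe lies at chrX:9019758-9021685 on the minus strand, the Cyba probe at chr8:124950893-124951161 on the minus strand and the Nox4 probe at chr7:94472458-94487478 on the plus strand.
Cybb A_51_P330331: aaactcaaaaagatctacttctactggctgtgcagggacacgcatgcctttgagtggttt
Cyba A_51_P131800: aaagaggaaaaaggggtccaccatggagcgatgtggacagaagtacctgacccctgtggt
Nox4 A_51_P369311: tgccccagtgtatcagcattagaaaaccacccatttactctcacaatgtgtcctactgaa

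The brightest probes of all subunits but Cyba were single 60-base stretches on mm9. They lay at chrX:9014314-9014373 for Cybb, chr5:134696729-134696788 for Ncf1, chr15:78092903-78092962 for Ncf4, chr15:78391545-78391604 for Rac2, chrX:130627582-130627641 for Nox1 and chr7:94545682-94545741 for Nox4. The Ncf4 and Nox4 probes were on the plus strand and the others on the minus strand. The exon or UTR each falls in was not analysed here.

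The start regions of Cybb and Nox4 are shown because these catalytic subunits stand for the phagocyte and the vessel wall form. Each window runs from 150 bases before to 20 bases after the gene start, 5′ to 3′ on the gene's own strand, from RefSeq's table on build GRCm38.p6. The Cybb window is chrX:9469305-9469474 on the minus strand and the Nox4 window chr7:87246499-87246668 on the plus strand.
Cybb: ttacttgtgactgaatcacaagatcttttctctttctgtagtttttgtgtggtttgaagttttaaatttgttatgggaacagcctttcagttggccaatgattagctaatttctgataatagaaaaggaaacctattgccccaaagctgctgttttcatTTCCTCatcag
Nox4: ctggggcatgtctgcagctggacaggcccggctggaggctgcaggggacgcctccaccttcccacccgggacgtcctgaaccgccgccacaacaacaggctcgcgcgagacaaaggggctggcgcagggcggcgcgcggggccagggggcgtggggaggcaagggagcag
Capitals mark the letters GAGGAA read on either strand, the core of the PU-box bound by PU.1, the transcription factor of myeloid cells. Of the 7 genes, 5 had a sequence of 300 bases in the table, from 250 before to 50 after the start. Ncf4 and Rac2 had none. The letters were searched over these 300 bases, of which the windows above are a part. GAGGAA was found at positions 10 to 15 after the start in Cybb, on the minus strand, and at positions -23 to -18, before the start, in Nox1. It was not found in the 300 bases of Cyba, Ncf1 and Nox4. The letters TGTTCT, a half-site of the steroid receptor element, were found at positions -149 to -144 of Ncf1 and in no other sequence of these 5. Among 32851 sequences of 300 bases, 28.3% held GAGGAA and 19% held TGTTCT, on either strand. G and C made up 35.3% of the 300 bases of Cybb and 68.3% of those of Nox4. These matches describe letters only.

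None of the subunits passed the test with either progestin. Under MPA, 5 of the 6 subunits that could be tested had a lower mean than their placebo group and Nox4 a slightly higher one, and the same 5 were lower under NET-A. The MPA direction depended on slide and background correction: 3 of 6 means were below placebo within slide 1 and 5 of 6 within slide 2, and normexp turned the signs of Ncf1 and Nox4. By the brightest probes, the largest of the MPA differences was that of Cybb, at 0.640 times its placebo level (95% interval 0.413 to 0.993), and the largest of the NET-A differences that of Ncf4, at 0.708 times (0.417 to 1.20). Averaged over all probes of a gene, Cyba (-0.34 log2) stood ahead of Cybb (-0.30) with MPA and Ncf1 (-0.61) ahead of Ncf4 (-0.50) with NET-A. The Cybb mean takes in its second probe, too dim to be called present throughout the MPA experiment. That MPA order thus rests in part on background signal. Under normexp the largest differences were those of Ncf4 (-0.54) with MPA and Ncf1 (-0.52) with NET-A. In all 12 comparisons the arrays of the treated and placebo groups overlapped; the groups lay apart for 4.02% of all genes with MPA and 3.93% with NET-A. After Benjamini-Hochberg adjustment in limma, 0 of 6 subunits were called with MPA, where 0% of 15378 genes were, and 0 of 6 with NET-A, where 0% of 21183 genes were. By the brightest probes, 1 of 6 subunits had an unadjusted limma p under 0.05 with MPA, against 6.20% of all genes. With NET-A it was 0 of 6, against 6.17%. The second Ncf1 probe, tested among all probes, had an unadjusted limma p of 0.014 with NET-A (0.677 adjusted). A mean below placebo, the direction of those 5 subunits, was found for 52.2% of all genes with MPA, for 54.7% with NET-A and for 27.1% of 15247 genes with both. The median change of the 6 subunits was -0.28 with MPA and -0.34 with NET-A, against -0.013 and -0.024 over all genes.

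**Figure D1:**
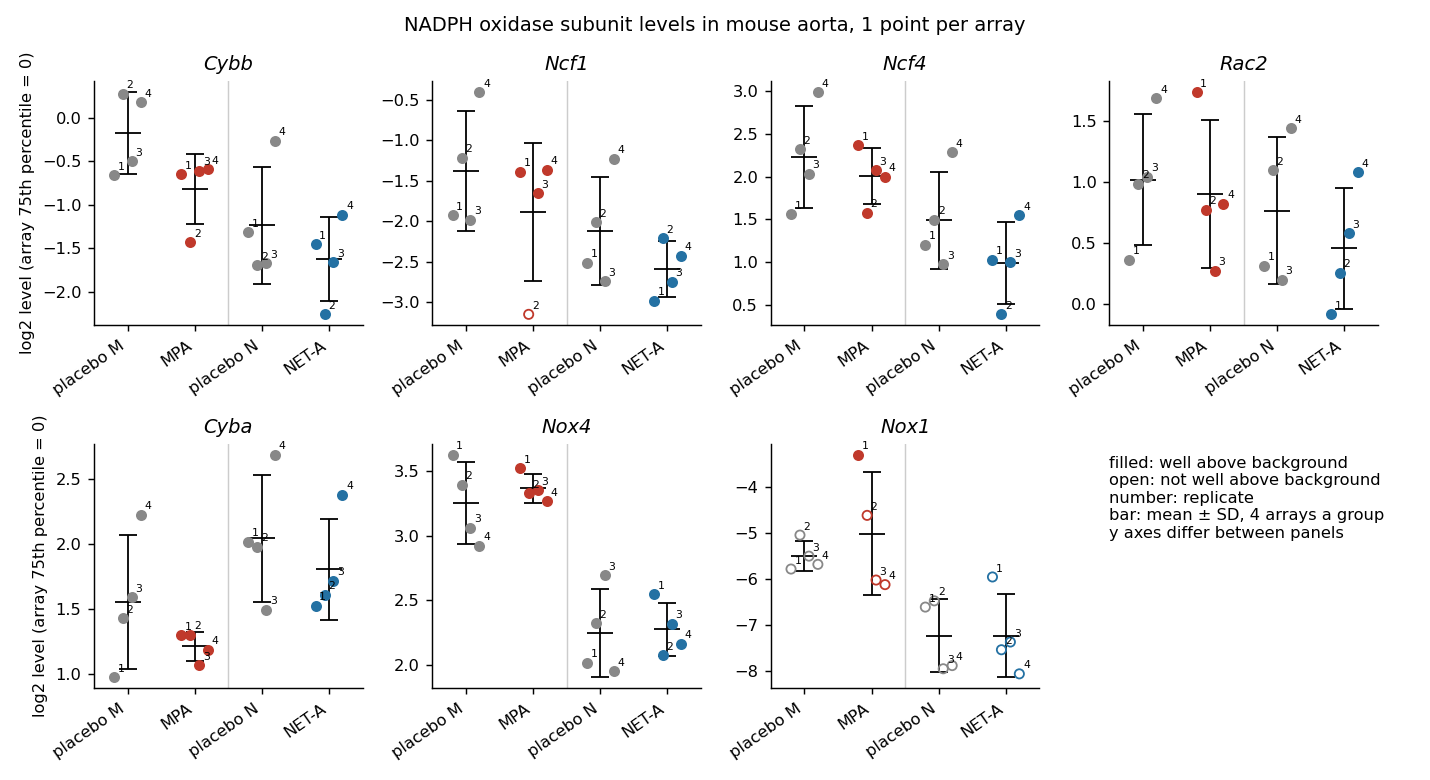
Level of each subunit's brightest probe on each array (log2 signal less the array's 75th percentile), by group; points are arrays numbered by replicate, open where not well above background, bars are mean ± SD of 4 arrays, and y axes differ between panels. Treated and placebo arrays overlap in every panel, placebo replicate 4 is high for most phagocyte subunits in both experiments, and Nox1 has 1 filled point.

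Cybb is the catalytic subunit that carries the electrons in the phagocyte oxidase. Its levels in placebo M were -0.66, 0.27, -0.50 and 0.17 in replicates 1 to 4, and with MPA they were -0.65, -1.43, -0.61 and -0.60. Placebo M replicates 2, 3 and 4 stood above all MPA arrays, placebo replicate 1 stood just below 3 of them, and MPA replicate 2 stood far below the rest. The change was -0.64 ± 0.28 (SE; 95% interval -1.28 to -0.01; limma adjusted p = 0.803). Within slide 1 it was -0.85 and within slide 2 -0.44. In placebo N the levels were -1.31, -1.70, -1.68 and -0.27 and with NET-A -1.45, -2.26, -1.66 and -1.11. Placebo N replicate 4 stood alone at the top, and the other 3 placebo arrays lay inside the range of the NET-A arrays. The change with NET-A was -0.38 ± 0.37 (SE; limma adjusted p = 0.955), and without placebo N replicate 4 it was -0.06 ± 0.28. The second Cybb probe, whose sequence is shown above, did not rise well above background on any of the 8 arrays of the MPA experiment. In the NET-A experiment it was above background on all 8 and gave a change of -0.35 ± 0.32 (SE).

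Cyba is the membrane partner that stabilises Cybb, Nox1 and Nox4 alike, so it belongs to both the phagocyte and the vessel wall enzyme. It measured 0.98, 1.43, 1.59 and 2.23 in placebo M and 1.30, 1.30, 1.07 and 1.19 with MPA. The MPA arrays lay close together (SD 0.11, n = 4) inside the much wider placebo range (SD 0.52, n = 4). The change was -0.34 ± 0.25 (SE; limma adjusted p = 0.865), with 0.10 within slide 1 and -0.78 within slide 2. In placebo N it measured 2.02, 1.98, 1.496 and 2.69 and with NET-A 1.53, 1.61, 1.72 and 2.38. Replicate 4 was the highest array in both of these groups. The change with NET-A was -0.24 ± 0.28 (SE; limma adjusted p = 0.975).

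Ncf1 is the organizer whose phosphorylation starts the assembly. The levels of its brightest probe were -1.93, -1.22, -1.98 and -0.41 in placebo M and -1.39, -3.15, -1.65 and -1.36 with MPA. By this probe MPA replicate 2 was not well above background, and the other 3 MPA arrays lay inside the placebo range. The second Ncf1 probe, above background on each of the 8 arrays, measured -2.69, -1.99, -1.92 and -1.05 in placebo M and -2.27, -1.65, -1.96 and -2.31 with MPA, so that replicate 2, the lowest MPA array by the first probe, was the highest by the second. The change by the brightest probe was -0.51 ± 0.47 (SE; limma adjusted p = 0.890), -0.09 ± 0.37 without MPA replicate 2, and 0.07 ± 0.30 under normexp, another background correction. In placebo N the levels were -2.51, -2.01, -2.74 and -1.23 and with NET-A -2.98, -2.21, -2.74 and -2.42. Placebo replicate 4 was again the highest array. The change was -0.47 ± 0.33 (SE; limma adjusted p = 0.919). The second Ncf1 probe gave -0.13 ± 0.32 with MPA and -0.76 ± 0.25 with NET-A (limma adjusted p = 0.677 over 30976 probes), so the 2 probes gave the same sign with different sizes.

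Ncf4, a cytosolic subunit that binds a membrane phosphoinositide and sustains the oxidase at the phagosome, measured 1.56, 2.32, 2.03 and 2.99 in placebo M and 2.37, 1.58, 2.07 and 1.999 with MPA. Placebo M replicate 4 was the highest of the 8 arrays and the other arrays of both groups were mixed. The change was -0.22 ± 0.30 (SE; limma adjusted p = 0.917). It measured 1.20, 1.49, 0.97 and 2.28 in placebo N and 1.02, 0.39, 0.99 and 1.55 with NET-A. NET-A replicate 2 was the lowest and placebo N replicate 4 the highest array. The change was -0.50 ± 0.33 (SE; limma adjusted p = 0.910), and -0.18, -0.50 and -0.66 within slides 3, 4 and 5.

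Rac2, the small GTPase of blood cells that switches the assembled enzyme on, measured 0.37, 0.99, 1.05 and 1.69 in placebo M and 1.74, 0.77, 0.28 and 0.82 with MPA. The highest and the lowest of the 8 arrays were both MPA arrays. The change was -0.12 ± 0.35 (SE; limma adjusted p = 0.966), 0.58 within slide 1 and -0.82 within slide 2. A second Rac2 probe gave 0.18 ± 0.38 (SE), the opposite sign. In placebo N the levels were 0.32, 1.098, 0.20 and 1.44 and with NET-A -0.08, 0.26, 0.58 and 1.08. These groups overlapped over most of their range, and the change was -0.30 ± 0.35 (SE; limma adjusted p = 0.975), with -0.47 ± 0.33 from the second probe.

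Nox4, the constitutively active oxidase of the vessel wall, which mainly releases hydrogen peroxide, had an SD of 0.11 to 0.34 within groups, against 0.33 to 0.85 for Cybb, Ncf1, Ncf4 and Rac2. It measured 3.63, 3.40, 3.06 and 2.92 in placebo M and 3.53, 3.33, 3.35 and 3.27 with MPA. All 4 MPA arrays lay inside the placebo range. The change was 0.12 ± 0.18 (SE; limma adjusted p = 0.926; 95% interval -0.29 to 0.53), or 1.08 times placebo (0.815 to 1.44). In placebo N it measured 2.01, 2.32, 2.69 and 1.95 and with NET-A 2.55, 2.07, 2.32 and 2.16. These 4 NET-A arrays also lay inside the placebo range, and the change was 0.03 ± 0.20 (SE; limma adjusted p = 0.997; 95% interval -0.42 to 0.48). The junction probe of Nox4 shown above gave 0.27 ± 0.19 with MPA and -0.27 ± 0.17 with NET-A (SE), neither past the test (limma adjusted p = 0.820 and 0.841). Under normexp the Nox4 change with MPA was -0.28 ± 0.22.

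Nox1, the inducible form of smooth muscle that uses Noxo1 and Noxa1, was well above background on 1 of the 16 arrays, MPA replicate 1, at -3.30. Its levels elsewhere were -4.62 to -6.13 on the other MPA arrays, -5.79 to -5.05 in placebo M, -7.96 to -6.48 in placebo N and -8.07 to -5.96 with NET-A. It was not tested, and no fold is given because its MPA mean was below the lowest signal called above background in the placebo group. Noxa1, its activator, was above background on 2 arrays, both NET-A, and Nox3 on none.

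**Figure D2:**
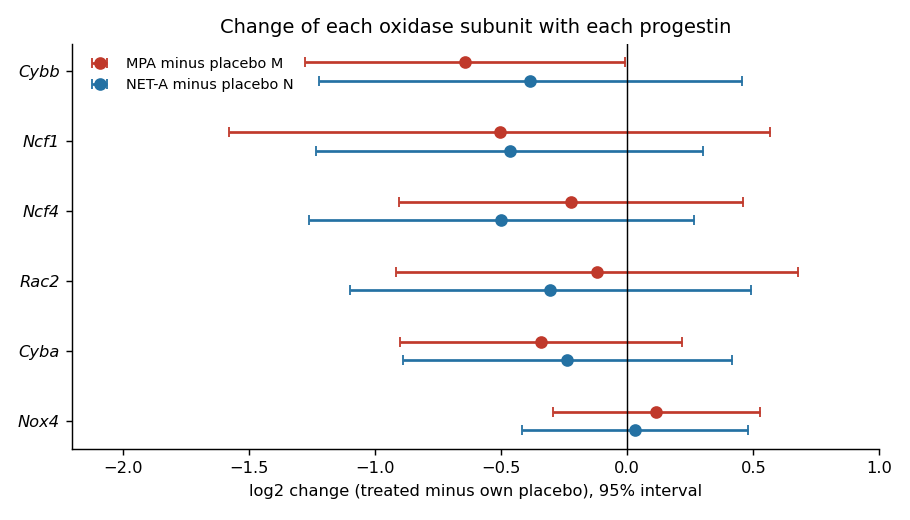
Change of each tested subunit (treated minus own placebo, log2) as points with 95% intervals, red for MPA and blue for NET-A, 4 arrays a group. Every interval but that of Cybb with MPA (-1.28 to -0.01) spans 0, and both Nox4 points lie close to 0.

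By group mean of the brightest probes, Cybb, Ncf1, Ncf4 and Rac2 were ordered placebo M, MPA, placebo N and NET-A from high to low. The second Ncf1 probe kept this order, and the second probes of Rac2 and Cybb did not. For Rac2 the second probe ran from -1.29 to 0.52 in placebo M and -0.59 to 0.22 with MPA. In placebo N it ran from 0.33 to 1.58 and with NET-A from 0.08 to 1.15. Cyba ran placebo N, NET-A, placebo M and MPA, and Nox4 MPA, placebo M, NET-A and placebo N. For these 6 subunits, neighbours in the order overlapped in range in all cases but one, Nox4 in placebo M (3.25 ± 0.32, SD, n = 4) against NET-A (2.27 ± 0.21, SD, n = 4). That step and the other steps between the experiments join arrays scanned with different software versions, so experiment and group cannot be told apart there.

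The difference between the progestins was tested directly as the MPA change less the NET-A change over all 16 arrays. The 2 compounds were not run side by side, and their doses are not stated, so this compares the 2 pellet treatments as each stood against its own placebo. The differences were -0.26 for Cybb (95% interval -1.27 to 0.75), -0.10 for Cyba (-0.92 to 0.72), -0.04 for Ncf1 (-1.35 to 1.27), 0.28 for Ncf4 (-0.71 to 1.27), 0.19 for Rac2 (-0.91 to 1.28) and 0.08 for Nox4 (-0.48 to 0.65). None of the 6 passed (limma adjusted p from 0.948 to 0.997), against 0% of 15247 genes, and none had an unadjusted p under 0.05, against 6.82% of genes. The intervals allow differences of more than 1 log2 unit for Cybb, Ncf1, Ncf4 and Rac2, so they do not show that the progestins acted alike.

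The phagocyte subunits were then set against Nox4 on each array. For each array the mean of Cybb, Ncf1, Ncf4 and Rac2 was taken, each as its level less its own placebo mean, and the same value of Nox4 was subtracted. In the MPA experiment the result was -0.96, 0.03, -0.08 and 1.02 on the placebo arrays and -0.18, -1.06, -0.50 and -0.22 on the MPA arrays. The MPA mean was -0.49 ± 0.40 (SD, n = 4), with 3 of the 4 MPA arrays inside the placebo range. The array outside it, MPA replicate 2, includes the brightest Ncf1 probe at -3.15, not well above background there. By the second Ncf1 probe it was the highest MPA array (-1.65), and the summary was not made with that probe. In the NET-A experiment it was -0.07, -0.08, -0.98 and 1.13 on the placebo arrays and -0.90, -0.51, -0.50 and 0.13 on the NET-A arrays. All 4 of the latter lay inside the placebo range, and their mean was -0.44 ± 0.43 (SD, n = 4). The placebo arrays alone spread by 0.81 and 0.87 (SD), more than either difference, and no test was made of this summary. Single arrays moved both differences by more than 1.5 times: the MPA difference was -0.81 without placebo M replicate 1, -0.15 without placebo M replicate 4 and -0.30 without MPA replicate 2. The NET-A difference was -0.77 without placebo N replicate 3, -0.07 without placebo N replicate 4 and -0.29 without NET-A replicate 1. Under normexp the MPA difference was -0.03.

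**Figure D3:**
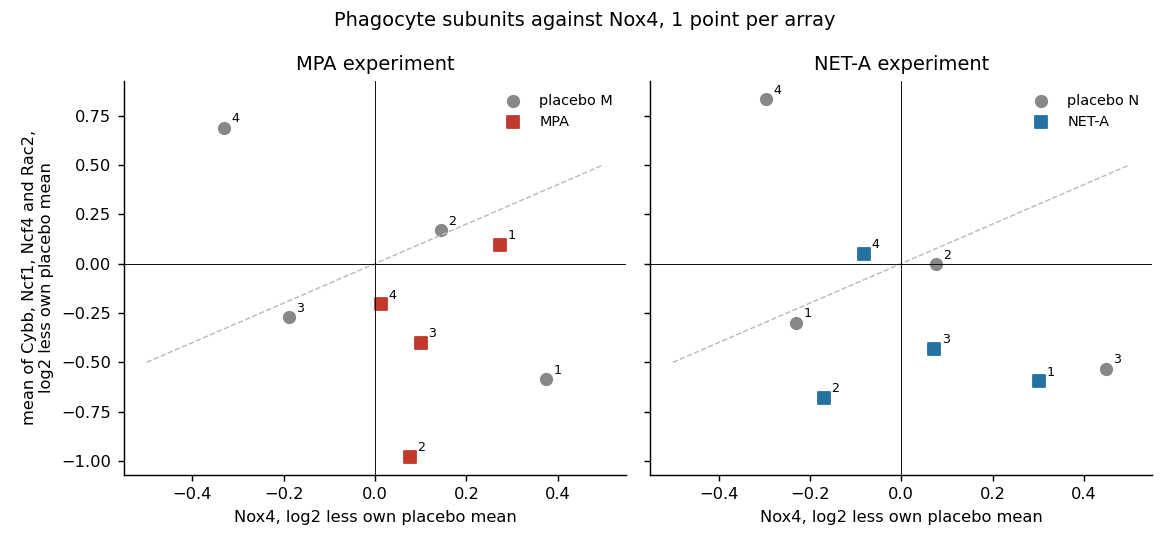
Mean of Cybb, Ncf1, Ncf4 and Rac2 (y axis) against Nox4 (x axis) on each array, both as log2 less the mean of the own placebo group; circles are placebo and squares treated arrays, numbered by replicate, and the dashed line marks equal change. Placebo replicate 4 lies at the top left in both experiments (0.69 and -0.33 for M, 0.83 and -0.30 for N), and treated arrays lie among the placebo arrays on the x axis.

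The subunits of the phagocyte enzyme were mostly highest on the same array in both placebo groups and with NET-A, but not with MPA. Placebo replicate 4 was the highest array of its group for 4 of the 5 genes Cybb, Cyba, Ncf1, Ncf4 and Rac2 in placebo M and for all 5 in placebo N. The same arrays had the highest summed signal of 17 macrophage markers, 402 in placebo M (lowest 182) and 229 in placebo N (lowest 75.01). A value left out as flagged counted as 0 in such sums, and Lgals3 lacked a value on an array of the MPA experiment. NET-A replicate 4 was highest for 4 of the 5 genes. With MPA, replicates 1 and 4 were each highest for 2 genes and replicate 2 for 1. By the brightest probes, MPA replicate 2 was lowest for Cybb, Ncf1 and Ncf4 and, narrowly, highest for Cyba. Without placebo M replicate 4 the MPA changes were -0.53 ± 0.30 for Cybb, -0.12 for Cyba, -0.18 for Ncf1, 0.03 for Ncf4, 0.10 for Rac2 and 0.01 for Nox4, so that 3 of the 6 means were below placebo. Without placebo N replicate 4 the NET-A changes ran from -0.23 for Ncf4 to -0.02 for Cyba, with Nox4 at -0.07.

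Markers of cells that carry the phagocyte oxidase were measured on the same arrays. All 17 macrophage markers had a lower mean than placebo with MPA (median -0.58) and with NET-A (median -0.56). Over all genes, 52.2% and 54.7% had a lower mean. An unadjusted limma p under 0.05 was found for 8 and 5 of the 17, against 6.20% and 6.17% of all genes. None of the 17 passed adjustment. Their summed signal, with values left out as flagged counted as 0, ran from 182 to 402 in placebo M and 150 to 206 with MPA. It ran from 75.01 to 229 in placebo N and 64.7 to 105 with NET-A. Of the neutrophil markers, 7 of 8 tested had a higher mean with MPA (median 1.89) and 8 of 12 with NET-A (median 0.78), none past adjustment. An unadjusted limma p under 0.05 was found for 6 of the 8, all higher. With NET-A it was found for 5 of the 12, 4 higher and 1 lower. Their sum ran from 7.62 to 29.8 in placebo M and from 40.1 to 133 with MPA, without overlap. In the NET-A experiment that sum was 4.27 to 8.50 in placebo and 7.25 to 21.1 with NET-A. No array had the neutrophil elastase gene Elane well above background, and no array of the MPA experiment the myeloperoxidase gene Mpo. Smooth muscle markers, of the cells that carry Nox4, had a median change of 0.06 with MPA and -0.02 with NET-A.

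Markers of the other cell types that an aorta sample can hold moved as well, in part by more than the subunits, and no gene named or counted here passed adjustment in limma. All 6 platelet markers had a higher mean with MPA (median 0.74) and with NET-A (median 1.83); their summed signal ran from 44.3 to 63.2 in placebo M, 44.5 to 87.7 with MPA, 5.71 to 13.3 in placebo N and 10.1 to 24.1 with NET-A. Erythroid markers were higher for 6 of 6 with MPA (median 0.83) and 5 of 6 with NET-A (median 1.38), with sums of 1325 to 1924 in placebo M, 1636 to 4366 with MPA, 1878 to 2645 in placebo N and 1929 to 2414 with NET-A. Skeletal muscle markers went opposite ways, lower for 5 of 5 tested with MPA (median -2.27) and higher for 7 of 7 with NET-A (median 1.15). Their sum was 6.42 to 67.7 in placebo M, highest in replicate 3, and 4.09 to 5.22 with MPA, where Ckm and Myh4 were above background on no array; it was 38.6 to 55.8 in placebo N and 40.3 to 58.1 with NET-A. B cell markers were higher for 4 of 4 tested with MPA (median 0.56) and lower for 4 of 5 with NET-A (median -0.36), their sums running from 1.60 to 4.32 in placebo M, 2.01 to 8.94 with MPA, 1.34 to 4.65 in placebo N and 0.825 to 3.74 with NET-A. The medians of the T cell, fibroblast, endothelial and adipocyte markers were -0.49, -0.31, 0.10 and -0.04 with MPA and -0.19, 0.06, 0.16 and 0.05 with NET-A. With MPA, an unadjusted limma p under 0.05 was found for 3 of 6 platelet, 1 of 6 erythroid and 2 of 5 skeletal muscle markers. It was also found for 1 of 5 T cell and 1 of 8 endothelial markers and for no B cell, fibroblast or adipocyte marker. With NET-A it was found for 6 of 6 platelet, 4 of 6 erythroid, 4 of 7 skeletal muscle and 1 of 7 fibroblast markers and for none of the others. The shares over all genes were 6.20% with MPA and 6.17% with NET-A. A mean below placebo was found for 52.2% and 54.7% of all genes. The part of these cell types in the subunit values was not tested.

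**Figure D4:**
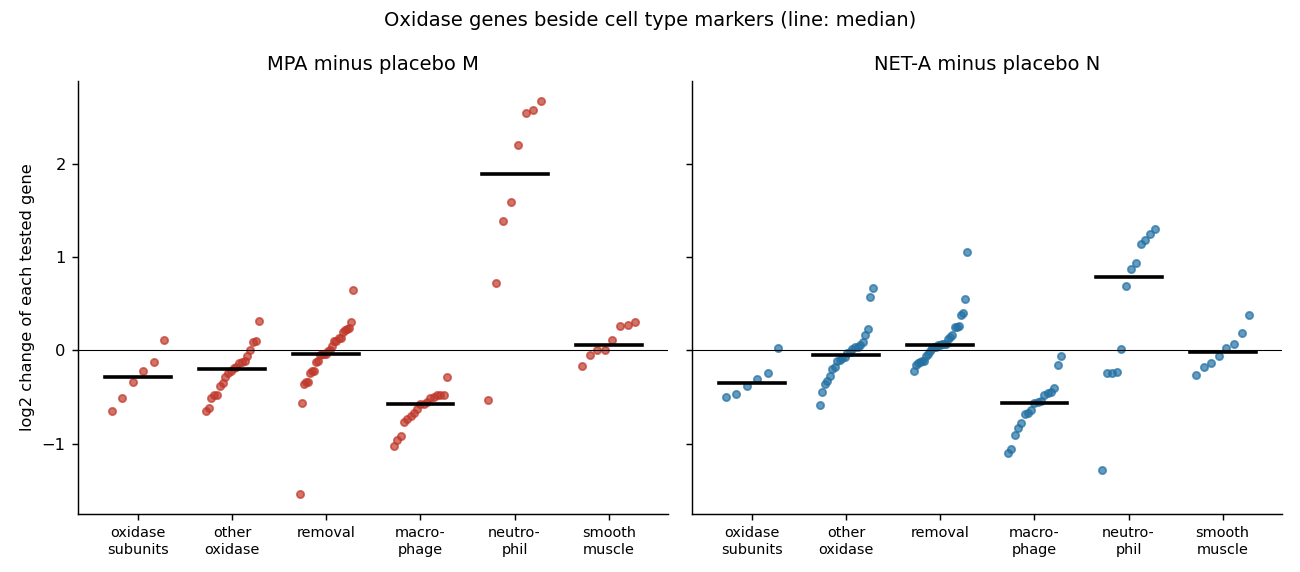
Change of every tested gene (treated minus own placebo, log2) in 6 groups of genes, left for MPA and right for NET-A, sorted within each group, with the median as a line. The medians of the oxidase subunits (-0.28 and -0.34) lie between 0 and those of the macrophage markers (-0.58 and -0.56), and the neutrophil markers lie mostly above 0.

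Likeness over arrays was described by Pearson's r over all 16 arrays, after each experiment's own mean was removed, among 11953 genes (11954 for Ncf1) above background on every array. Arrays share slides, treatment and tissue make-up, so these are descriptions with no p. Brightest probes were used, and the r values of Ncf1 include MPA replicate 2, where its probe (-3.15) was not well above background. By the second Ncf1 probe that array was the highest with MPA (-1.65). The 3 genes most like Cybb were Evi2a, Pirb and Mpeg1 (r = 0.91 each). For Cyba they were Btk, Pstpip1 and a transcript without a symbol (0.95 each), for Ncf1 Lyn, Rgs19 and Cmtm3 (0.92, 0.90 and 0.89), for Ncf4 Ly86, BC013712 and Cd47 (0.95, 0.94 and 0.94) and for Rac2 Sash3, Arhgap45 and Samsn1 (0.93, 0.93 and 0.92). Those most like Nox4 were Fryl, CB182661 and Csgalnact1 (0.92, 0.91 and 0.89). Between subunits, r ran from 0.51 (Cybb and Rac2) to 0.85 (Cybb and Ncf4) among the 5 genes of the phagocyte enzyme, and from -0.77 (Cyba) to -0.37 (Cybb) between Nox4 and each of them.

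A list of 24 further genes of the oxidases and their regulators was read in the same way. With MPA, 20 were tested, and 16 had a lower and 4 a higher mean than placebo, against 52.2% of all genes lower. The median change was -0.20, against -0.013 over all genes, and none passed adjustment. With NET-A, 22 were tested, 13 lower and 9 higher, against 54.7% of all genes lower. The median was -0.05, against -0.024 over all genes, and none passed. Cybc1, the chaperone needed for Cybb and Cyba to mature, gave -0.38 ± 0.19 and -0.20 ± 0.13 (SE) with MPA and NET-A, and Nrros, which in turn limits Cybb, gave -0.51 ± 0.33 and -0.33 ± 0.35.

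Only Sh3pxd2b, a scaffold related to Ncf1 that organizes oxidases at invadopodia, had an unadjusted limma p under 0.05 against placebo among these genes, with MPA (-0.61 ± 0.18, adjusted p = 0.776). Its MPA arrays (-2.98 to -2.27) all lay below its placebo M arrays (-2.14 to -1.83), a separation downward seen for 1.58% of all genes with MPA. With NET-A it gave -0.08 ± 0.20. Its relative Sh3pxd2a gave 0.09 ± 0.16 and 0.23 ± 0.17. Noxo1, the organizer of Nox1, gave 0.32 ± 0.19 with MPA and -0.07 ± 0.25 with NET-A.

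Among the other small GTPases and their handlers, Rac1 gave -0.12 and 0.16, Rac3 -0.19 and 0.04 and Rap1a -0.24 and -0.03 with MPA and NET-A. Arhgdia gave -0.12 and 0.02 and Arhgdib -0.18 and -0.12. Flagged values left 3 arrays for Arhgdia in placebo M and with MPA, and 3 for Arhgdib with MPA. The Rac exchange factor Vav1 gave -0.22 and -0.58. Kinases that act on Ncf1 gave -0.06 and 0.09 (Prkcd), 0.00 and -0.45 (Prkcb) and 0.10 and -0.17 (Pak1), and Prkca, tested with NET-A alone, -0.11. Poldip2, which binds Cyba and raises Nox4 activity, gave -0.13 and 0.05. Hvcn1, the proton channel that balances the charge of the phagocyte enzyme, gave -0.48 and -0.36, and P4hb, a disulfide isomerase of the vascular oxidases, -0.35 and -0.02. None of these passed the test (limma adjusted p from 0.859 to 0.998).

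The dual oxidases, which release hydrogen peroxide, gave -0.65 ± 0.44 and 0.04 ± 0.21 for Duox1 and -0.28 ± 0.45 and -0.27 ± 0.27 for Duox2 (SE). The maturation factor Duoxa1 gave -0.48 ± 0.31 with MPA and 0.67 ± 0.37 with NET-A, a difference of -1.14 ± 0.50 between the responses (limma adjusted p = 0.711). Duoxa2 was tested with NET-A alone (0.57 ± 0.55).

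**Figure D5:**
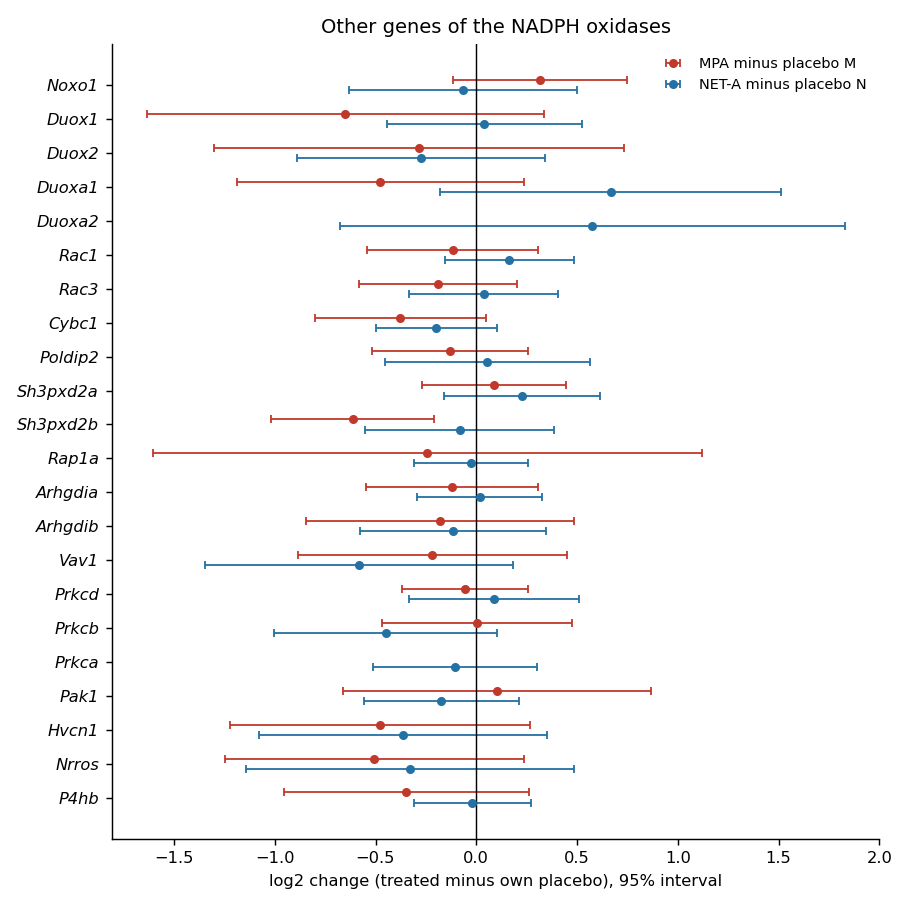
Change of 22 further oxidase genes (treated minus own placebo, log2) with 95% intervals, red for MPA and blue for NET-A. There were 4 arrays a group, but 3 for Arhgdia in placebo M and with MPA and for Arhgdib with MPA. Every interval spans 0 but that of Sh3pxd2b with MPA (-1.02 to -0.21).

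Genes that remove superoxide and peroxides, 27 in number, were all tested. With MPA, 15 had a lower and 12 a higher mean (median -0.04), and with NET-A 9 a lower and 18 a higher one (median 0.06). Over all genes, 52.2% and 54.7% had a lower mean. None of the 27 passed adjustment in limma. Hmox1, the inducible heme oxygenase, had the smallest p with MPA (-1.54 ± 0.50, limma adjusted p = 0.776) and gave -0.22 ± 0.29 with NET-A. Next with MPA came Prdx6, a peroxiredoxin (0.24 ± 0.13), Gpx3, the secreted glutathione peroxidase (0.64 ± 0.33), and Txnrd2, the mitochondrial thioredoxin reductase (0.22 ± 0.14). With NET-A the smallest p belonged to Gclm (0.56 ± 0.20, limma adjusted p = 0.723) and then Gclc (0.38 ± 0.19), which together form the first enzyme of glutathione synthesis, followed by catalase, Cat (0.40 ± 0.20), and Gpx1 (0.26 ± 0.14). Between the responses, Hmox1 (-1.32 ± 0.62), Gclc (-0.61 ± 0.33), Cat (-0.62 ± 0.39) and Prdx5 (-0.62 ± 0.45) had the smallest p, none past adjustment in limma (adjusted p from 0.729 to 0.861).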

How the data were processed

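Per the labels' protocols, Cy3-labelled cRNA was made from 100 ng of RNA. Per the file headers, the deposited spot intensity was read from one-colour Agilent arrays (build mm9) with Feature Extraction 10.7.1.1 (MPA experiment) and 11.0.1.1 (NET-A experiment), which subtracted background; it was not normalized between arrays. The deposited series table holds log2 values; how they were normalized is not stated, and they served as an alternative. Files of the NET-A experiment carried no gene names, so probes were named by probe ID from the other files.

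Flagged spots were left out (1802 probe values, 0.274%), no spot was saturated, spots of a probe were averaged, and the array's 75th percentile was subtracted from log2 intensity. A gene was tested where its brightest probe was well above background on at least 4 of 8 arrays, with limma 3.58.1 in R 4.3.3 (lmFit and eBayes, two-sided; Benjamini-Hochberg over all genes, threshold 0.05), checked on simulated data. Changes are mean log2 differences ± SE, 4 arrays a group unless another number is given. In counts and medians some genes had fewer arrays where a value was flagged. Of the probes, 26690 matched the RefSeq table by accession and 14484 kept the design's name.

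Alternatives were background correction (normexp, on median signals in the NET-A experiment), scaling, filters, probe choice, slide and replicate blocks, array weights and left-out arrays. Genes named were all 7 subunits, all further oxidase genes tested, the 4 removal genes of smallest p per comparison and the 3 genes most like each subunit. One oxidase gene is not reported here. The subunits and lists were chosen with earlier results of these data known.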

Additional observations from a re-analysis of the deposited data

Results flagged for a closer look

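Of 24 groups of 4 arrays checked, one for each of the 6 tested subunits in each group, 2 held an array far from the others, and chance flags about 1 in 20 such groups. Both were MPA replicate 2. Cybb stood at -1.43 there, against -0.65 to -0.60 on the other MPA arrays. The brightest Ncf1 probe stood at -3.15 there, not well above background, against -1.65 to -1.36. The second Ncf1 probe was well above background on that array and stood at -1.65, the highest of its 4 MPA values (-2.31 to -1.65), so the low value belongs to a single Ncf1 probe. That array also had the smallest share of spots well above background in its experiment, 46.3%. Without it, the MPA change of Cybb was -0.44 and that of the brightest Ncf1 probe -0.09. The part of signal strength in these values was not tested.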

How the results depend on the processing

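None of the 6 tested subunits was called in any comparison under any alternative that gave a test. Cybb stayed below placebo with MPA under all 23 alternatives (-0.85 to -0.30), with an unadjusted limma p under 0.05 in 8 of them. The value of -0.30 came from the mean of both its probes. Its second probe was too dim to be called present throughout the MPA experiment, so that value is in part background signal. Other values changed sign as follows, and the cause was not tested. Under normexp, which moved the median of all genes with NET-A from -0.02 to -0.13, Ncf1 with MPA gave 0.068 and Nox4 with MPA -0.28; the differences between the responses became 0.058 for Cybb, 0.59 for Ncf1, -0.20 for Ncf4, -0.46 for Nox4 and -0.14 for Rac2. Scaling to the array median turned the Nox4 difference to -0.082. Averaging all probes of a gene gave 0.030 for Rac2 with MPA, -0.12 for Nox4 with NET-A, and differences of 0.071 for Cybb and 0.29 for Ncf1. The Cybb difference includes its dim second probe. Array weights gave differences of 0.25 for Ncf1, -0.073 for Nox4 and -0.082 for Rac2. Within slide 1 the MPA changes of Cyba, Ncf4, Nox4 and Rac2 were 0.097, 0.033, -0.085 and 0.58. With NET-A, slide 4 (1 array a group) gave 0.036 for Cybb and -0.0038 for Nox4, and slide 5 gave -0.20 for Nox4. Leaving out 1 array at a time gave MPA changes of -0.44 to 0.033 for Ncf4 and -0.40 to 0.10 for Rac2, and NET-A changes of -0.067 to 0.18 for Nox4. The differences then ran from -0.32 to 0.12 for Cyba, -0.34 to 0.38 for Ncf1, -0.065 to 0.21 for Nox4 and -0.092 to 0.41 for Rac2, and 0 to 1 genes were called for the difference, Fam107a without NET-A replicate 1.

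Over all genes, 1 was called with MPA with slide as a block (S100a8) and 1 with all 16 arrays in one fit (AK052744), and 1 for the difference under quantile normalization (AK052744) and 1 with the replicate block (Sall4). Genes at an unadjusted limma p under 0.05 numbered 954 with MPA (4342 under normexp, 1628 with array weights), 1308 with NET-A (557 under normexp) and 1040 for the difference (4349 under normexp). Same-numbered arrays did not deviate together throughout (r from -0.33 to 0.32), and the numbers were not taken as pairs. NET-A replicates 1 and 4 were most like the placebo array of their own number (r = 0.18 and 0.32), and no other treated array was. With the replicate block Cybb with MPA gave -0.64 ± 0.31 (limma adjusted p = 0.858) and 0 subunits were called. The number of arrays and, for Nox1, signal near background limit these results.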
